A study of Schizosaccharomyces pombe with 4 samples.

Results

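The subtelomeric genes described here are the genes of Schizosaccharomyces pombe, the fission yeast, whose identifiers begin with one of 12 clone names from the ends of its chromosomes (SPAC212, SPAC977, SPAC1348, SPAC186, SPAC750, SPAC869, SPBC1348, SPBPB2B2, SPBPB10D8, SPBCPT2R1, SPCC569 and SPCC1884). The identifiers chose the genes, and no expression value did. The arrays held 101 such probes, of which 1, SPAC212.07c, was marked by the layout as a missing product, so 100 of the 4845 genes analysed were subtelomeric. SPAC1348.14c was left out as an exception in the choice of genes. No probe carried a name from SPBC1348 or SPBCPT2R1.

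The study compared total RNA of logarithmically growing cells of the mutants sim3-143 and sim3-205 with RNA of wild-type cells on spotted open reading frame arrays. Both are alleles of sim3, which encodes a histone chaperone related to NASP of animals that escorts CENP-A, the histone H3 variant of centromeres. Each allele was hybridised on 2 two-colour arrays, with the mutant in Cy3 on replicate 1 and in Cy5 on replicate 2. Each array held every probe as 2 spots, which gives 4 data points per allele. The labels give no other genotype, no growth temperature and no strain number, and they do not say whether the swapped arrays were made from separate RNA extracts or whether the alleles shared their wild-type RNA. The error given here is therefore the spread between arrays, which may be technical. All values are log2 ratios of mutant over wild-type, where 0.58 is 1.5-fold.

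Subtelomeres of fission yeast are packaged into heterochromatin, marked by methylation of histone H3 at lysine 9 and bound by the HP1-like protein Swi6, which reaches inward from the telomere and its shelterin proteins. Their genes are known to be weakly expressed in growing cells, and several respond to nitrogen starvation or other stress. The ends share blocks of duplicated genes, so that families such as the ftm genes and the tlh helicases are spread over several ends.

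The arrays differed in quality. Sim3-205 replicate 1 had 3 of 32 printed grids in which the Cy3 and Cy5 signals were nearly unrelated (Spearman 0.241, 0.156 and -0.19, against 0.794 or more in the grids kept), and these were dropped. This removed 18 subtelomeric genes from that array, so that 82 had both sim3-205 arrays and 18 had only replicate 2. Across all genes, the ratios of that array correlated with those of the other arrays at r = -0.03, -0.03 and 0.14, whereas the other 3 arrays correlated with each other at 0.33 to 0.58. The highest, 0.58, was between the replicate 2 arrays of the different alleles, both with the mutant in Cy5. Within an allele, the arrays correlated at 0.48 in sim3-143 and at 0.14 in sim3-205. These correlations are across genes, which are not independent replicates. On each array, all but 1 of the subtelomeric genes measured were above empty spots in both dyes. The exception was SPBPB2B2.05, which was not well above background in either dye on any array. No subtelomeric spot was saturated. A signal above empty spots can still be dim, and some dim values are pointed out below.

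Most of the 100 genes were found in the reference gene table of assembly ASM294v3, which was used only for symbols, chromosome and gene order, since the array files name no genome build. By identifier, 84 matched, and 12 of the 13 SPAC1348 genes were listed under the same number with the prefix SPBC. The remaining 4 (SPAC1348.13, SPBPB2B2.03c, SPBPB2B2.04 and SPBPB2B2.20c) were placed with their clone. All 96 placed genes lay among the 36 genes nearest an end, with a median of 13.5, on chromosomes of 928 to 2341 coding genes and pseudogenes. There were 25 genes at the left end of chromosome I, 27 at its right end, 20 at each end of chromosome II, 1 at the left end of chromosome III and 7 at its right end.

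In sim3-205, the subtelomeric genes lay on the whole slightly above wild-type, and the highest means were those of outer genes of chromosomes I and II. On sim3-205 replicate 2, 75 of 100 were above wild-type, against 2431 of 4841 genes in all, and on replicate 1, 52 of 82 were, against 2289 of 4409. The genes next inward showed much the same, with 83 of 120 on replicate 2 and 57 of 97 on replicate 1. The median of the 100 genes was 0.196 in sim3-205, with array medians of 0.129 and 0.199, whereas the median of all 4845 genes was 0.003. In sim3-143 their median was 0.028, with array medians of 0.059 and 0.027, against -0.0094 over all genes. These 120 inner neighbours, 20 per end, had a median of 0.087 in sim3-205 and of -0.0054 in sim3-143. No test was made of these medians.

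**Figure D1:**
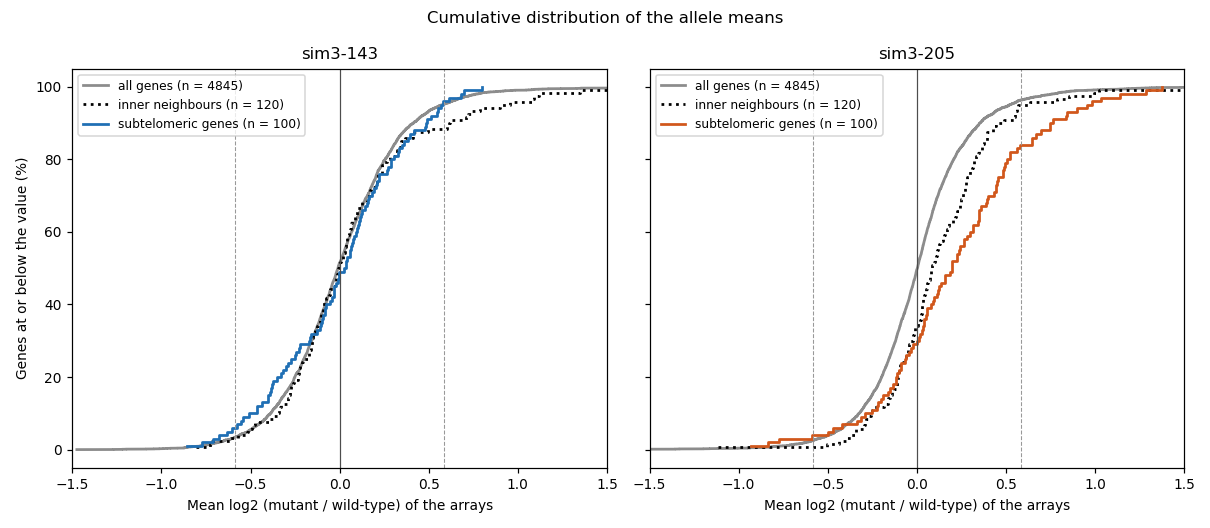
Cumulative share of genes (percent, vertical axis) at or below a mean log2 ratio of mutant over wild-type (horizontal axis) for subtelomeric genes (coloured), their inner neighbours (dotted) and all genes (grey), with dashed lines at 1.5-fold. In sim3-205 the curve of the subtelomeric genes is displaced to the right, with a median of 0.196 against 0.003 for all genes, and in sim3-143 the medians are 0.028 and -0.0094.

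By the rule of the study's methods, at least 3 of 4 data points past 1.5-fold in the same direction, 8 of 82 subtelomeric genes assessed in sim3-205 were higher (9.76%), against 1.73% of all genes assessed. One was lower (1.22%), against 0.614% of all genes. In sim3-143, 3 of 100 were higher, against 2.08% of all genes, and 2 were lower, against 1.39%, which is near the background. No gene was past the rule in the same direction in both alleles, but 18 genes could not be assessed in sim3-205. The matching count over all genes was not made, so this is not read as particular to the subtelomeric genes. At 1.5-fold the study itself reported only 1 gene affected alike in both alleles. The rule gives no p-value. With only 1 array of an allele, both of its data points had to pass. In sim3-205, 19 of 100 were then higher and 2 lower without replicate 1 (21 in all), against 4.32% and 3.04% of all genes. Without replicate 2, 8 of 82 were higher and 6 lower (14 in all), against 3.74% and 3.86%. In sim3-143, 11 were higher and 12 lower without replicate 1 (23 in all), against 9.14% and 7.31% of all genes, and 4 and 6 without replicate 2 (10 in all), against 2.29% and 2.09%.

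No subtelomeric gene passed limma's moderated test at a Benjamini-Hochberg adjusted p below 0.05 over all genes. In sim3-143 the test called 0.268% of all genes and none of the 100 (lowest adjusted p = 0.304, for SPAC869.09), and in sim3-205 it called 0% of all genes (lowest adjusted p = 0.113, for SPAC750.05c). With both alleles averaged it called 0.557% of all genes, and the lowest adjusted p of a subtelomeric gene was 0.0787, again for SPAC750.05c. For the difference between the alleles it called 0% of all genes, with a lowest adjusted p of 0.766. Replicate number goes with the dye of the mutant in both alleles, and a fit with a dye coefficient called SPAC750.05c in sim3-205 (adjusted p = 0.0421) and over both alleles (adjusted p = 0.0331). Leaving out sim3-205 replicate 1 brought in SPAC869.09 over both alleles and SPBPB10D8.01 for the difference between alleles. Leaving out sim3-205 replicate 2 brought in SPAC750.05c and SPBPB10D8.05c in sim3-205 and over both alleles, and SPAC869.03c for the difference.

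At an unadjusted p below 0.05, which does not correct for the number of genes, the directions were uneven. In sim3-205, 20 of the 100 genes were higher, against 4.64% of all genes, and 3 were lower, against 3.38%. The 20 include SPAC212.05c, SPAC977.01, SPAC750.07c and SPAC869.09, which had only 1 sim3-205 array. Their own residual spread came from the sim3-143 arrays alone. In sim3-143, 9 were higher (6.38% of all genes) and 7 were lower (5.35%). Over both alleles, 26 were higher (7.57% of all genes) and 5 were lower (5.99%). Between the alleles, 13 were higher in sim3-205 (2.77% of all genes) and 2 were lower (2.81%). On all 4 arrays, 21 of 82 genes lay above wild-type (25.6%, against 12.1% of all genes measured on all 4) and 5 lay below (6.10%, against 10.5%). Among the inner neighbours measured on all 4 arrays, 24 of 97 lay above (24.7%) and 7 below (7.22%), so this is not particular to the subtelomeric genes. Genes of a duplicated family may share sequence, so these counts are not counts of independent genes, and whether their probes cross-hybridise was not tested.

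The ftm genes are a family of predicted membrane proteins of fission yeast with copies at several ends, and 7 of them were measured (ftm1 to ftm7). Their median was 0.645 in sim3-205 and 0.264 in sim3-143, and all 7 allele means were above 0 in each allele. With the mutant in Cy3 the array medians were 0.202 in sim3-143 and 0.266 in sim3-205. With the mutant in Cy5 they were higher, at 0.451 and 0.856. All 5 ftm genes measured on all 4 arrays were above wild-type on each of them, against 12.1% of all genes. Over both alleles, 6 of the 7 were higher at an unadjusted p below 0.05 (limma), against 7.57% of all genes. None of the ftm genes had an adjusted p below 0.05.

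SPAC750.05c (ftm4), the fourth gene from the right end of chromosome I, was at 1.57 and 1.18 in sim3-205 and at 0.25 and 0.07 in sim3-143. The sim3-205 arrays lay well above both sim3-143 arrays. Its mean in sim3-205 was 1.37 ± 0.27 (SD, n = 2), which is 2.59-fold. In the deposited ratios, which gave fewer values, it was not past the rule in sim3-205 (1.18). Over both alleles its log2 ratio was 0.77 with a standard error of 0.12 (limma, adjusted p = 0.0787).

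SPAC1348.02 (listed as SPBC1348.02, ftm5), near the left end of chromosome II, was at 1.26 and 1.03 in sim3-205 and at 0.15 and 0.57 in sim3-143. Again the alleles did not overlap, and the sim3-205 mean of 1.14 ± 0.16 (SD, n = 2) was 2.21-fold. SPAC977.02 (ftm2) differed in order, at 0.59 and 0.81 in sim3-143, where it was past the rule, and at 0.13 and 0.67 in sim3-205. The alleles overlapped for this gene. SPAC977.01 (ftm1) and SPBPB2B2.17c (ftm7) were measured on a single sim3-205 array, at 0.98 and 0.64. Their sim3-143 ratios were 0.05 and 0.35 for ftm1, and -0.20 and 0.45 for ftm7. The wild-type signal of ftm7 on the sim3-205 array was only 28.25, against 1025.25 and 593.5 on the sim3-143 arrays. The remaining copies, ftm3 (SPAC750.04c) and ftm6 (SPAC1348.03), had sim3-205 ratios of 0.13 and 0.86, and of 0.27 and 0.70.

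The other genes higher by the rule in sim3-205 came from clones that also hold ftm genes. SPAC1348.01, the neighbour of SPAC1348.02 on its telomere side, was at 0.86 and 1.05 in sim3-205 and at 0.06 and 0.02 in sim3-143. The separation was wide relative to the spread of either pair, with means of 0.95 ± 0.14 and 0.04 ± 0.03 (SD, n = 2 each). The difference of 0.91 between the alleles had a standard error of 0.22 and an unadjusted p of 0.00551, and an adjusted p of 0.766 by limma.

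At the right end of chromosome I, SPAC750.06c was at 0.80 and 0.88 in sim3-205 and on either side of 0 in sim3-143 (0.33 and -0.28). It was not past the rule in sim3-205 without replicate 2 (0.80) or in the deposited ratios (0.91), which gave fewer values. SPAC750.01 was at 1.17 and 0.62 in sim3-205 and at 0.61 and 0.09 in sim3-143, so the alleles nearly met. With print-tip loess, which is fitted within each grid, its sim3-205 mean of 0.90 fell to 0.04. This gene's call therefore rested on the normalization.

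At the right end of chromosome II, SPBPB2B2.18 was at 0.68 and 1.39 in sim3-205 and at 0.21 and -0.27 in sim3-143. Its neighbour SPBPB2B2.19c was at 0.62 and 0.91 in sim3-205 and at 0.19 and -0.69 in sim3-143. The 2 genes overlap in the gene table, so their probes may read common sequence, and in both the ratios of the alleles did not overlap. Without sim3-205 replicate 2 neither was past the rule (0.68 and 0.62), and SPBPB2B2.19c was also not past it with print-tip loess (0.67). No measured subtelomeric gene with a place in the gene order lay further out at that end. SPBPB2B2.19c is number 10 from the end, so genes without a probe in this list lie further out. SPBPB2B2.20c of the same clone was not placed.

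SPAC977.07c (pfl6), which encodes a flocculin-like cell surface protein, was the remaining gene past the rule in sim3-205, at 0.81 and 0.58 there and at 0.14 and 1.01 in sim3-143. The ratios of sim3-143 lay on either side of those of sim3-205. With print-tip loess its sim3-205 mean fell from 0.69 to 0.20. The other flocculin-like gene of the list, SPAC186.01 (pfl9), was between -0.29 and 0.12 on the 4 arrays.

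**Figure D2:**
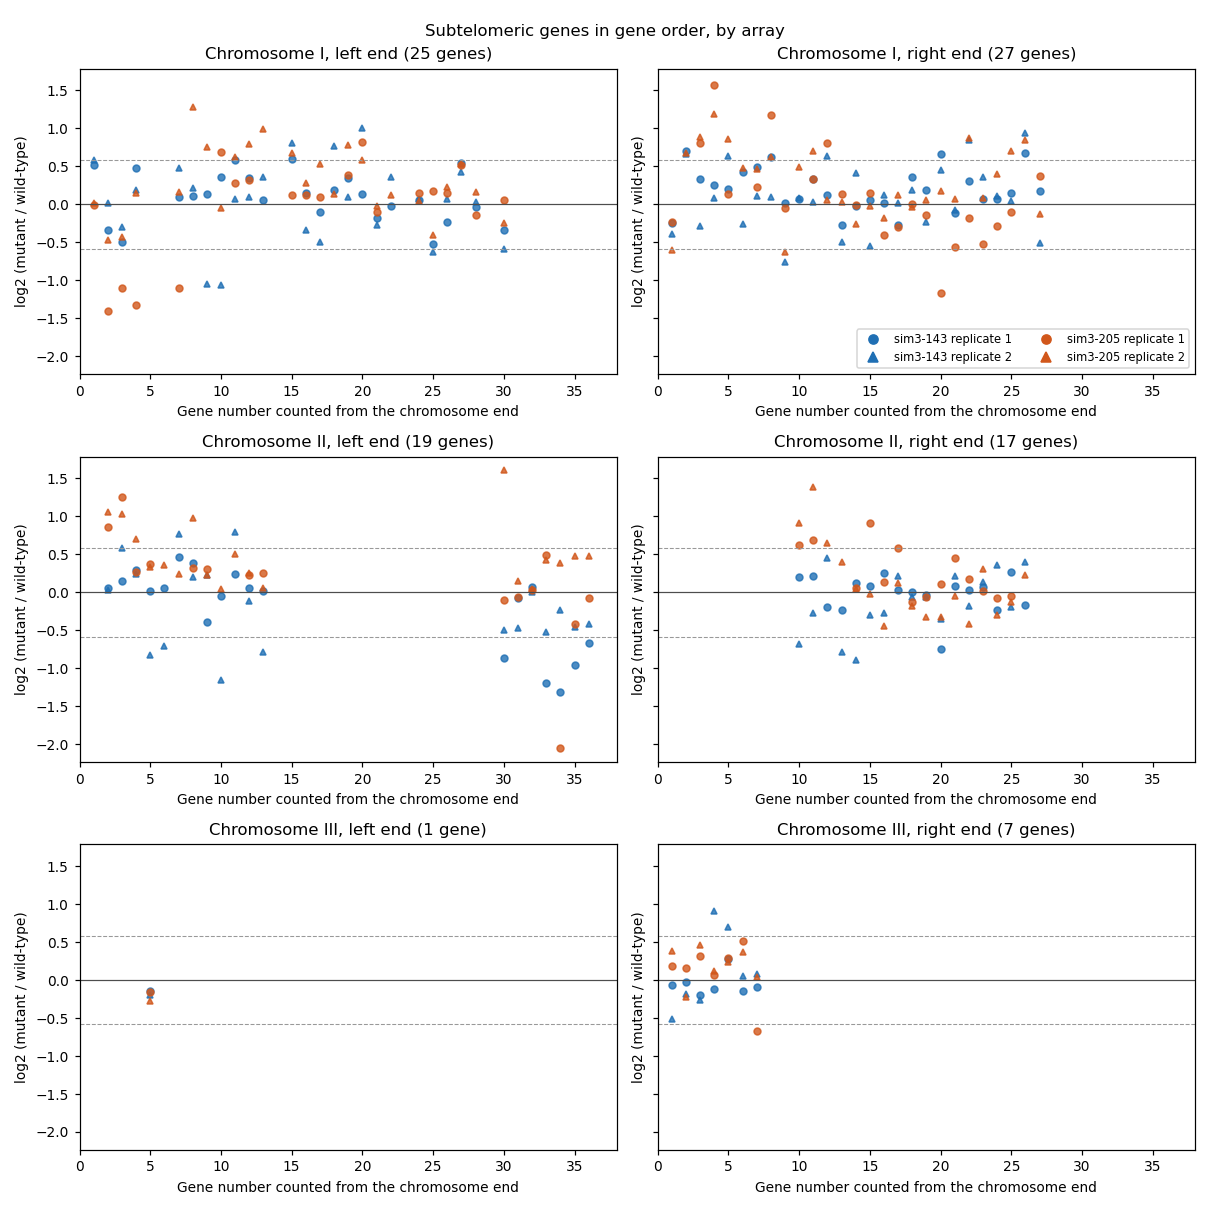
Log2 ratio of mutant over wild-type (vertical axis) of each subtelomeric gene on each array, against its gene number counted from the chromosome end (horizontal axis), for the 96 genes placed. Circles are replicate 1 and triangles replicate 2, blue is sim3-143, orange is sim3-205, and dashed lines mark 1.5-fold. High sim3-205 points lie among the outer genes, such as SPAC750.05c at 1.57 and SPAC1348.02 at 1.26, and also further in. The highest is SPBPB10D8.01, at 1.60 on 1 of its arrays, where its wild-type signal was only 54.5. At the left end of chromosome I, SPAC212.10 and SPAC212.09c have their lowest points on sim3-205 replicate 1, at -1.40 and -1.11. The outermost gene there, SPAC212.11, is between -0.01 and 0.58 on the 4 arrays.

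The difference with position was seen mainly in sim3-205. The 53 placed genes within 15 genes of an end had a sim3-205 median of 0.385, and the 43 further in had one of 0.042. In sim3-143 the medians were 0.042 and -0.0062. Among genes assessed in sim3-205, 7 of 41 within 15 genes of an end were past the rule upward and 1 of 39 further in. Of the inner neighbours assessed, 4 of 97 were, and of all genes assessed 1.73%. The limit of 15 genes was set with the values known, and no test was made. With a limit of 10 genes the sim3-205 medians were 0.346 and 0.130, and with 20 genes 0.315 and 0.075. A gene's distance from the end goes with the family it belongs to, and the part of either in these medians was not tested.

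By clone, the sim3-205 median was highest in SPAC750, the outermost clone of chromosome I on the right, at 0.582 over 8 genes, with 0.515 and 0.645 on the arrays. SPAC1348, at the left end of chromosome II, followed with 0.349 over 13 genes. All 8 SPAC1348 genes measured on both sim3-205 arrays were above wild-type on each, and all 13 were above it on replicate 2. Of all genes, 1203 of 4405 were above wild-type on both sim3-205 arrays and 2431 of 4841 on replicate 2. In sim3-143, SPAC1348 had a median of -0.03, with 7 of 13 genes above wild-type on replicate 2. The next clones inward from SPAC750 had sim3-205 medians of 0.059 (SPAC186, 9 genes) and 0.018 (SPAC869, 10 genes). SPCC569, which forms the right end of chromosome III in the gene order, had 0.267 over 7 genes, with 5 above wild-type on both sim3-205 arrays, and -0.043 in sim3-143. The ends of chromosome III adjoin the ribosomal DNA repeats. SPCC1884.01, the single gene at the other end of chromosome III, lay below wild-type on all 4 arrays by little, between -0.27 and -0.15.

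**Figure D3:**
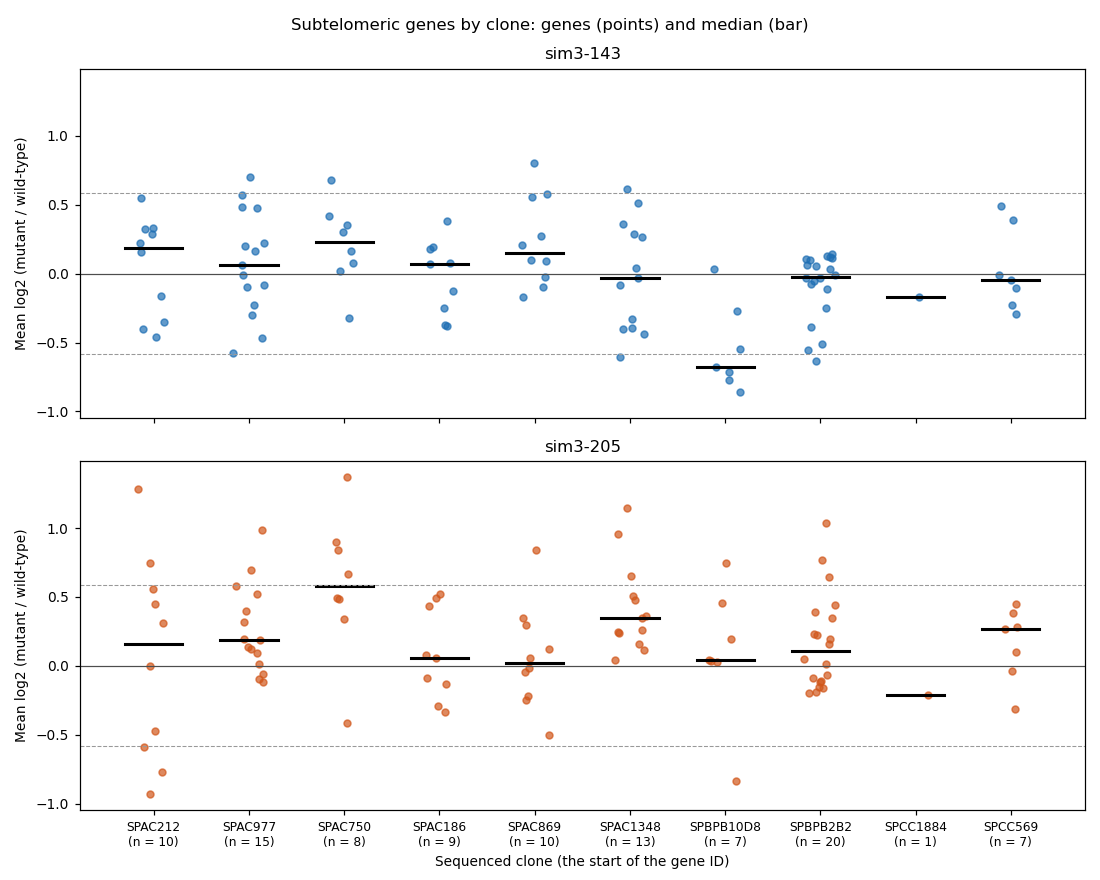
Mean log2 ratio of each subtelomeric gene (points, vertical axis) and the median (black bar) by clone (horizontal axis) in sim3-143 (upper) and sim3-205 (lower), with dashed lines at 1.5-fold. Clones run from the end inward on each chromosome arm. SPAC750 and SPAC1348 have the highest sim3-205 medians (0.582 and 0.349), and SPBPB10D8 has the lowest sim3-143 median (-0.68).

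At the left end of chromosome I, the outermost genes went in different directions. SPAC212.11 (tlh1), the first gene of the chromosome, encodes a RecQ-type DNA helicase with a near-identical copy, tlh2, at the right end of chromosome II, which its probe may also read. It was at 0.52 and 0.58 in sim3-143 and at -0.01 and 0.01 in sim3-205. The arrays of each allele lay close together and did not overlap between alleles. The sim3-143 mean was 0.55 ± 0.04 (SD, n = 2), which is 1.46-fold, and the difference between alleles, -0.55 with a standard error of 0.22, had an unadjusted p of 0.0425 and an adjusted p of 0.766 (limma). The gene was past the rule in sim3-143 with median centring (0.89) and in the deposited ratios (0.75). The study also listed it as higher in sim3-143 at 1.5-fold. Median centring put its sim3-205 mean at -0.61.

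The pseudogene SPAC212.10 beside it was the one gene past the rule downward in sim3-205, at -1.40 and -0.47, and was at -0.34 and 0.02 in sim3-143. The next pseudogene, SPAC212.09c, was below wild-type on all 4 arrays (-0.50, -0.30, -1.11 and -0.43). SPAC212.08c and SPAC212.06c were at -1.33 and -1.10 on sim3-205 replicate 1 and at 0.15 and 0.16 on replicate 2. All 4 of these genes were lowest on the array whose ratios stood apart, and its part in their values was not tested. The wild-type signal of SPAC212.08c was 18714.5, 10831.25 and 9400.5 on the other arrays, but only 275.5 on sim3-205 replicate 2. Its 0.15 there thus came from a much dimmer signal, and the reason was not tested. Without sim3-205 replicate 1, the sim3-205 value of SPAC212.10 was -0.47 and no longer past the rule. Further in, the pseudogene SPAC212.05c was measured on sim3-205 replicate 2 alone, where it was at 1.28, against 0.10 and 0.21 in sim3-143.

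At the opposite end of the chromosome, the outermost gene, SPAC750.08c, was also below wild-type on all 4 arrays (-0.25, -0.39, -0.24 and -0.60). Its neighbour SPAC750.07c was above it on the 3 arrays that measured it, at 0.69 and 0.66 in sim3-143 and 0.67 in sim3-205. These ratios lay close together, and the gene was past the rule in sim3-143.

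**Figure D4:**
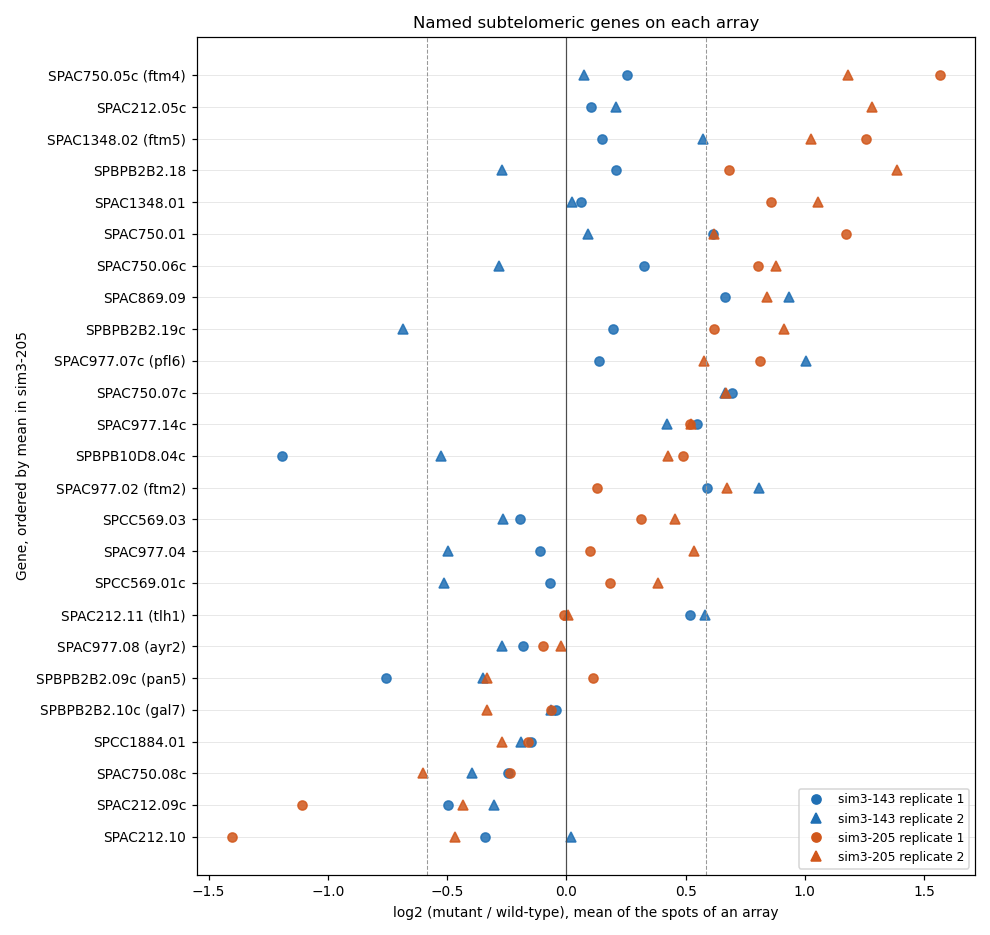
Log2 ratio of mutant over wild-type (horizontal axis, mean of the spots of an array) for the 25 genes named by rule, ordered by their mean in sim3-205 (vertical axis). Circles are replicate 1 and triangles replicate 2, blue is sim3-143, orange is sim3-205, and dashed lines mark 1.5-fold. In SPAC750.05c, SPAC1348.02 and SPAC1348.01 both orange points lie to the right of both blue points, and in SPBPB10D8.04c the alleles lie on opposite sides of 0.

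Some genes lay above wild-type to a like degree in both alleles. SPAC869.09 was the highest of these over both alleles (0.82, standard error 0.15, limma adjusted p = 0.144). It was at 0.67 and 0.93 in sim3-143, where it was past the rule, and at 0.84 on the single sim3-205 array that measured it. The spots of that sim3-205 array differed, at 1.28 and 0.40, so the gene was not past the rule on it alone. SPAC977.14c was at 0.55, 0.42, 0.52 and 0.52 on the 4 arrays. The 4 arrays lay closely together, with a log2 ratio of 0.50 and a standard error of 0.11 over both alleles, at an adjusted p of 0.174 by limma.

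In sim3-143, the lowest block of genes was SPBPB10D8, which lies inward of SPAC1348 at the left end of chromosome II. Its 7 genes had a sim3-143 median of -0.68, with -0.87 and -0.46 on the arrays. Of the 7, 6 were below wild-type on both sim3-143 arrays, against 1579 of 4815 genes in all. In sim3-205 the median was 0.042, with -0.08 on replicate 1 and 0.426 on replicate 2, where all 7 were above wild-type. SPBPB10D8.04c, annotated by the study as a putative malate permease, was at -1.19 and -0.53 in sim3-143 and at 0.49 and 0.43 in sim3-205. The study listed this gene as higher in sim3-205 at 1.5-fold, but here it was not past the rule in that allele. The alleles lay on opposite sides of wild-type. Its sim3-143 mean, -0.86 ± 0.47 (SD, n = 2), was past the rule, and the sim3-205 mean was 0.46 ± 0.04 (SD, n = 2). The difference of 1.32 had a standard error of 0.29 (limma, unadjusted p = 0.00291, adjusted p = 0.766).

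The neighbours SPBPB10D8.05c, SPBPB10D8.06c and SPBPB10D8.07c were at -1.32, -0.96 and -0.67 on sim3-143 replicate 1 and at -0.23, -0.46 and -0.41 on replicate 2. SPBPB10D8.05c was at -2.05 and 0.38 on the sim3-205 arrays, which is the widest spread between arrays of an allele among the genes named here. The -2.05 came from spots at -1.44 and -2.66, with a mutant signal of only 48.5. SPBPB10D8.01 was at -0.87 and -0.49 in sim3-143 and at -0.11 and 1.60 in sim3-205. Its wild-type signal was 54.5 where it was at 1.60, against 508 and 514 on the sim3-143 arrays. The limma calls of SPBPB10D8.01 and SPBPB10D8.05c with 1 array left out used these dim values. The genes numbered 04c to 07c stand side by side, and whether their probes share sequence was not tested. SPBPB10D8.03, a pseudogene of the same clone, was at most 0.07 from wild-type on all arrays.

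The remaining gene past the rule downward in sim3-143 was SPBPB2B2.09c (pan5), a ketopantoate reductase of pantothenate synthesis, at -0.75 and -0.35. In sim3-205 it was at 0.11 and -0.33. The alleles came close to overlapping, and the sim3-143 mean was -0.55. The call was lost with print-tip loess (-0.57), with no background correction (-0.53), with median centring (-0.34), in the deposited ratios (-0.86) and without replicate 1 (-0.35), so that only median centring and the loss of replicate 1 made the mean clearly smaller.

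SPBPB2B2 also holds the galactose gene cluster of fission yeast. The genes gal7, gal10 and gal1 encode the uridylyltransferase, epimerase and kinase of galactose metabolism. Their means lay between -0.05 and 0.12 in sim3-143 and between -0.20 and 0.35 in sim3-205. None was past the rule in either allele. SPBPB2B2.10c (gal7) was below wild-type on all 4 arrays by -0.33 to -0.04.

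The following transporters and enzymes were past the rule in neither allele. SPAC977.11 (fex1, a fluoride exporter) was between 0.04 and 0.15 on the 4 arrays, and SPAC977.08 (ayr2, an acyl-dihydroxyacetone phosphate reductase) between -0.27 and -0.02. SPAC869.05c (sul2, a sulfate permease) was at 0.31 and 0.85 in sim3-143 and at -0.18 and 0.87 in sim3-205. SPAC869.10c (put4, a proline permease) had both signs in each allele. SPAC186.09 (pdc102, a pyruvate decarboxylase) was at 0.01 and -0.76 in sim3-143 and at -0.05 and -0.63 in sim3-205, so that in each allele it was low only where the mutant was in Cy5. SPAC186.07c, a 2-hydroxyacid dehydrogenase, was at 0.33, 0.03, 0.33 and 0.71, and has an antisense transcript over it. The study listed SPAC186.07c and SPAC186.08c as higher in sim3-205 at 1.5-fold. Here SPAC186.08c was measured on only 1 sim3-205 array, at 0.49, and could not be assessed there.

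Single arrays differed in how many subtelomeric genes they placed past 1.5-fold. On sim3-143 replicate 2, 12 of 100 were higher (12.0%, against 10.4% of all genes) and 14 lower (14.0%, against 9.99%), and none of the 14 was past 1.5-fold on replicate 1. The lowest were SPAC1348.09 (-1.16), SPAC212.03 (-1.06), SPAC212.04c (-1.06) and SPBPB2B2.20c (-1.03). On replicate 1 these 4 were between -0.24 and 0.36. On sim3-205 replicate 2, 24 of 100 were higher (24.0%, against 5.39% of all genes), and on sim3-205 replicate 1 12 of 82 were (14.6%, against 6.06%), with 7 genes past it on both. The lower counts were 2 of 100 on replicate 2 (against 4.01% of all genes) and 7 of 82 on replicate 1 (8.54%, against 6.15%). Overlaps between the arrays of an allele were not counted over all genes, so none is read as particular to the subtelomeric genes. The array of sim3-205 replicate 2 belongs to another array platform record than the other 3, so platform and replicate cannot be told apart within sim3-205.

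Genes that encode telomere proteins and heterochromatin factors were examined alongside, of which 26 of the 27 listed were measured. Of these, 1 was past the rule in sim3-143, poz1, a shelterin bridge protein, at 0.97 and 0.50, and it was at 0.18 and -0.51 in sim3-205. None was past the rule in sim3-205 (23 assessed). The median of the 26 was 0.097 in sim3-143 and 0.110 in sim3-205. The gene for the H3 lysine 9 methyltransferase, clr4, was at -0.07 and -0.09 in sim3-143 and at -0.47 and -0.30 in sim3-205, and swi6 was at -0.21, -0.24, 0.44 and -0.14.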

How the data were processed

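Total RNA from sim3-143, sim3-205 and wild-type cells was compared on 4 two-colour arrays, 2 per allele. Per the file headers, the deposited scanner files give, for each dye, the median spot intensity and the local background, not normalized. The authors also deposited log2 ratios normalized with Lowess in GeneSpring, whose background treatment is not stated. Set against the scanner values, these ratios had the direction mutant over wild-type, and their medians were 0.0029, 0.0718, -0.0634 and 0.0086.

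Gene names were assigned to grid positions after the layout given for sim3-143 replicate 1. Names written for sim3-143 replicate 2 and sim3-205 replicate 1 matched it in 0.521% of spots, although spots empty by the layout were dim on both (median intensity 354 and 264, against 4794 and 2949.5). Intensities were corrected with normexp (offset 50) and loess (span 0.3) in limma 3.58.1 under R 4.3.3, and turned to mutant over wild-type. Grids with a Spearman correlation between dyes below 0.5 were dropped. Spots were averaged per array and fitted with lmFit and eBayes over 4845 genes. Genes with 1 sim3-205 array were assumed to vary like the others. With 4 arrays an exact two-sided sign test cannot go below p = 0.125. Summaries were made in Python 3.11.15. The scripts were tested on simulated data. Arrays have no sequencing depth, and precision is limited by their number.

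Genes named were those past 1.5-fold in either allele, the 6 highest means among those above wild-type on every array measured, the 5 that lay below it on every array, tlh1, the 5 smallest unadjusted p over both alleles and the 4 largest differences among genes on opposite sides in the alleles. Others were named after their values were seen. The genes and lists were chosen with earlier results of these data known.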

Additional observations from a re-analysis of the deposited data

Results flagged for a closer look

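In 4 of the named genes both arrays of sim3-143 lay below wild-type and both arrays of sim3-205 above it. The difference of sim3-205 minus sim3-143 was 1.32 for SPBPB10D8.04c, 0.62 for SPAC977.04, 0.62 for SPCC569.03 and 0.57 for SPCC569.01c on the log2 scale. SPCC569.03 was at -0.20 and -0.26 in sim3-143 and at 0.31 and 0.46 in sim3-205, and SPAC977.04 at -0.11 and -0.50 against 0.10 and 0.54. SPCC569.01c was at -0.07 and -0.51 against 0.18 and 0.39. The limma test of the difference between the alleles gave an adjusted p of 0.766 for SPBPB10D8.04c, which is the lowest it gave for any gene. Of 82 subtelomeric genes measured on all 4 arrays, 5 lay below wild-type in sim3-143 and above it in sim3-205 and 1 the other way round. Over all 4375 such genes, these were 227 and 272.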

How the results depend on the processing

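No subtelomeric gene named here changed sign where it was past the rule. Over 490 values of the 25 named genes under other settings, 450 kept their side of the rule, 27 lost the call or had too few values for it, and 13 gained it. Among these, SPAC977.02 and SPAC869.09 lost their call in sim3-143 with print-tip loess, at means of 0.61 and 0.88 against 0.70 and 0.80. The median of the 100 genes in sim3-205, 0.196, was 0.292 with plain background subtraction, 0.262 without background correction and 0.251 in the deposited ratios, and 0.129 to 0.199 with 1 array left out. In sim3-143 it was 0.0704 in the deposited ratios and 0.027 to 0.059 with 1 array left out. The count past 1.5-fold in sim3-205, 9, was 14 with plain subtraction, 6 with print-tip loess (5 higher), 5 of 35 assessed in the deposited ratios, 3 with all 4 data points required, 2 at 2-fold, 14 by the mean of the data points, and 9 to 21 with 1 array left out. With the 3 grids kept it was 13. In sim3-143 the count of 5 was 8 with median centring, 2 with all 4 data points, 0 at 2-fold, 10 by the mean, and 5 to 23 with 1 array left out. Of the limma calls, none under the setting used, SPAC750.05c was called (1 gene) with a dye coefficient, in sim3-205 and over both alleles, and 2 genes, SPAC750.05c and SPAC1348.02, at an adjusted p below 0.1 over both. With 1 array left out there were 0 to 2 in sim3-205, 0 to 2 over both and 0 to 1 between the alleles. The 26 genes on one side of wild-type on all 4 arrays were 8 in the deposited ratios, which gave fewer values for these spots (78 to 179 per array), and 33 to 46 with 1 array left out, where only 3 arrays had to agree. Keeping SPAC1348.14c, chosen after seeing the data, changed no count. The cause of the other shifts was not tested. An alternative with 1 gene per family of near-identical proteins was not run, since no protein sequences were used here. No paired analysis was possible because the labels give no replicate numbers. The numbers used here follow the dye of the mutant, and the fit with a dye coefficient stands above.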
